A study of Mus musculus with 6 samples.

Results

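The 59 genes described here encode the mitotic spindle, the kinetochore, condensin and the proteins that regulate them. They were chosen by name, as the rows of the deposited expression table whose gene symbol was on a list of 59, and all 59 were among the 21397 genes in that table. Values were FPKM, that is, fragments per kilobase of transcript scaled to the library total, from bulk RNA-seq of mouse small intestinal organoids.

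Organoids were grown from crypts of Fpr2f/f mice, C57BL/6J animals of 8 to 12 weeks of age according to the methods, which carry a floxed Fpr2 gene, and the labels name no Cre. Both groups shared this genotype, and Fpr2 encodes formyl peptide receptor 2 (FPR2), a receptor that couples to G proteins. The MMK-1 group (n = 3 samples) received MMK-1, a peptide agonist of FPR2, for 5 days, and the Control group (n = 3 samples) received 0.1% DMSO, the vehicle. The treatment label gives the dose as 1 mM and the protocol and methods as 1 μM. Each sample held organoids from 3 mice, and the labels do not say whether the samples of a group were separate cultures. The methods state in general terms that experiments were repeated independently at least 3 times, without naming the sequenced samples, so p-values measure the spread between these samples only. Organoids contain stem, transit-amplifying and differentiated epithelial cells in one culture, and in bulk RNA fewer cells of a type and less RNA per cell cannot be told apart.

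Most of these proteins act in mitosis. Chromosomes are compacted by condensin, their centromeres assemble kinetochores, kinetochores capture spindle microtubules, and the spindle assembly checkpoint holds back the anaphase-promoting complex (APC/C) until capture is complete. Motor proteins of the kinesin family shape the spindle and the midzone, where cytokinesis is then directed. In the intestine such divisions take place in stem cells and transit-amplifying cells of the crypt, and in organoids in the crypt-like buds.

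Depth, recovered from the steps in the FPKM values, was 35512739 to 37537463 fragments per library, and single genes of the list were supported by 102 to 10748 fragments per library. The test took in 10551 genes, those whose FPKM averaged 1 or more, and 48.5% of them were higher in MMK-1 organoids at an adjusted p of at most 0.05 (limma on log2(FPKM + 1), Benjamini-Hochberg adjustment). Over the whole set tested, log2 fold changes had a median of 0.13, and of -0.0047 after each library was divided by its upper quartile. On that scaling 34.7% of 10543 genes tested were higher. The counts below are to be read against these shares, and a member near the median of all genes did not stand out from the whole table.

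All 59 genes passed the filter and all 59 were higher in MMK-1 organoids at an adjusted p of at most 0.05 (limma), while none was lower. After upper-quartile scaling 58 of 59 were called higher, with Pttg1 the exception. In every one of the 59 genes the lowest MMK-1 library lay above the highest Control library, a separation that 50.5% of all genes tested also showed, and under upper-quartile scaling it held for 57 genes, beside 36.6% of all genes tested. Their median log2 fold change was 0.84 with quartiles of 0.69 and 0.94, against quartiles of -0.14 and 0.41 over all genes tested, and under upper-quartile scaling their median was 0.69. Of the 59, 43 lay above the 90th percentile of log2 fold changes among the genes tested, and the lowest gene of the list, Pttg1, lay at the 60th percentile.

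The size of the rise was moderate. At the fold threshold stated in the methods, a fold change of at least 2 with an unadjusted p of at most 0.05, 10 of 59 were higher on the log2(FPKM + 1) scale, beside 3.39% of all genes tested. Under upper-quartile scaling the threshold was passed by Ect2 and Plk4 alone, 2 of 59, beside 2.12% of all genes. Because the added 1 compresses low values, the plain ratio of mean FPKM was also taken. By that ratio 24 of 59 were at least 2-fold higher, beside 7.01% of all genes tested, and it ran from 1.25 for Pttg1 to 3.41 for Ect2 with a median of 1.91.

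Summed over the 59 genes, FPKM was 498, 487 and 485 in Control replicates 1 to 3 and 919, 938 and 951 in MMK-1 replicates 1 to 3. The means were 490.1 ± 7.28 and 936 ± 16.2 (SD, n = 3), a ratio of 1.91, and the exact two-sided permutation test gave p = 0.1, the smallest value that 3 against 3 allows. Levels in Control ranged from 0.671 FPKM for Kif14 to 61.2 FPKM for Ube2c, with a median of 5.67 FPKM, and in MMK-1 from 1.47 to 112 FPKM, with a median of 12.3 FPKM. Pearson's r across the 59 genes between log2 Control FPKM and log2 fold change on log2(FPKM + 1) was 0.17. With the log2 ratio of mean FPKM, which adds no pseudocount and was tried after seeing the data, it turned to -0.28. Both are descriptions over genes that share the same 6 libraries.

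**Figure D1:**
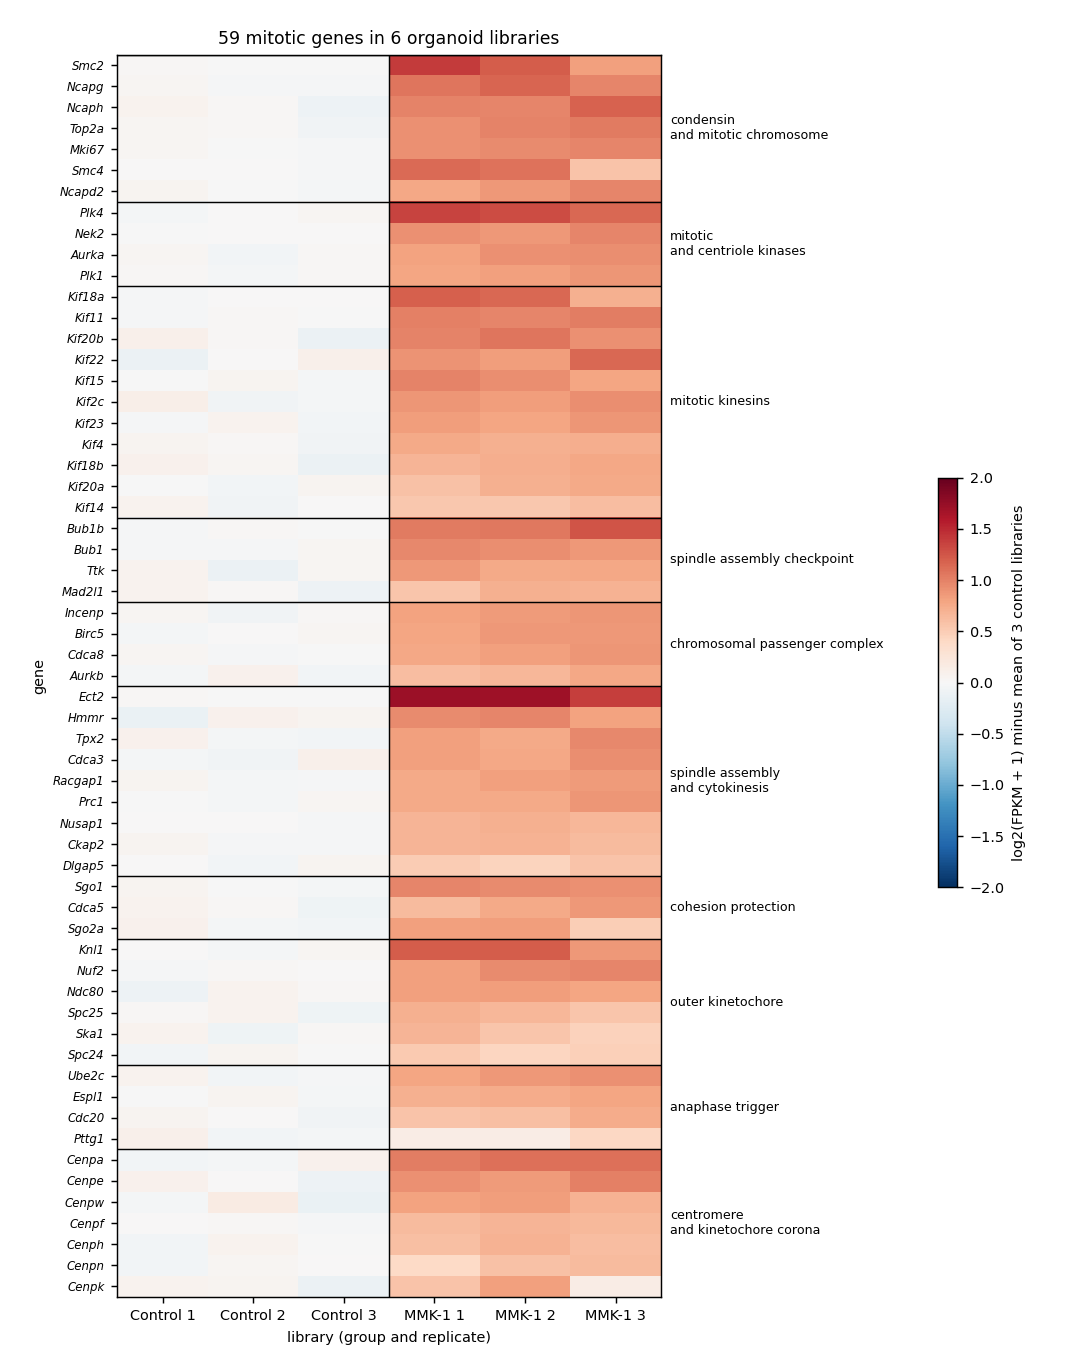
Each row is a gene and each column a library. The colour gives log2(FPKM + 1) minus the mean of the 3 Control libraries, from blue (lower) through white to red (higher), and rows are grouped by role in order of median change. The 3 MMK-1 columns are red in nearly every row, Pttg1 is palest, and MMK-1 replicate 3 is paler than the others in Smc2, Smc4, Kif18a and Cenpk.

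Genes that compact and organise mitotic chromosomes rose in 7 of 7 cases, by a median of 0.98 on the log2 scale. This was the largest median of the 10 role groups in the main fit, though not with limma-voom (0.86, against 0.90 for mitotic kinesins) or after GC correction (0.93, against 0.97 for the kinases). GC correction here means that a smooth trend of the log2 values on transcript GC content was removed from each library. Smc2 (NCBI gene 14211, chr4:52439243-52488260 on mm10), an ATPase core subunit shared by both condensin complexes, stood at 5.81, 5.599 and 5.604 FPKM in Control and at 16.5, 14.4 and 10.8 FPKM in MMK-1. The groups were well apart although MMK-1 replicate 3 was the lowest treated library, and the log2 fold change was 1.14 (SE 0.122, limma adjusted p = 4e-05). Its partner ATPase Smc4 was at 9.80, 9.89 and 9.67 FPKM in Control and at 22.7, 21.9 and 15.1 FPKM in MMK-1, a log2 fold change of 0.93 (SE 0.129). The 3 other subunits are specific to condensin I, the form that loads after the nuclear envelope breaks down. They rose by log2 fold changes of 1.07 for Ncapg, 1.04 for Ncaph and 0.88 for Ncapd2, the smallest of the group. Ncapg was at 6.16, 5.91 and 5.91 FPKM in Control and at 13.7, 14.7 and 12.8 FPKM in MMK-1, its change was 0.70 after GC correction, and 13.4% of its exon bases lie opposite Lcorl. Ncaph was at 11.5, 11.1 and 10.02 FPKM in Control and at 22.5, 22.2 and 25.7 FPKM in MMK-1. All 3 separated the groups. Ncapd2 was at 12.4, 11.7 and 11.5 FPKM in Control and at 21.1, 22.5 and 24.3 FPKM in MMK-1.

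Top2a, the topoisomerase that untangles sister chromatids, had the highest level in this group. It was at 26.0, 25.9 and 24.2 FPKM in Control and at 48.5, 51.4 and 53.0 FPKM in MMK-1, a log2 fold change of 0.98 (SE 0.0496, limma adjusted p = 4.4e-07). Mki67, whose protein Ki67 coats mitotic chromosomes and is the usual histological marker of proliferation, went from 13.9 ± 0.405 to 27.6 ± 0.673 FPKM (SD, n = 3). Its log2 fold change was 0.94 (SE 0.0428), and neither gene showed overlap between the groups.

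Kinases of mitosis and of the centriole rose by a median of 0.90 on the log2 scale, 4 of 4 genes. Plk4 (NCBI gene 20873, chr3:40800019-40816883 on mm10), the kinase that starts centriole duplication, was at 2.45, 2.59 and 2.65 FPKM in Control and at 8.04, 7.79 and 6.88 FPKM in MMK-1. Its log2 fold change of 1.26 (SE 0.0632, limma adjusted p = 4e-07) was second in the list. The other 3 kinases changed less and close to each other: Nek2, which separates centrosomes, by 0.92, Aurka, which matures spindle poles, by 0.88, and Plk1, which acts at poles, kinetochores and midzone, by 0.83. Plk1 was the highest of the group, with 17.3, 16.5 and 17.3 FPKM in Control and 30.1, 30.7 and 32.2 FPKM in MMK-1. Aurka was at 11.5, 10.6 and 11.3 FPKM in Control and at 20.2, 21.9 and 22.1 FPKM in MMK-1.

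All 11 mitotic kinesins rose, with a median log2 fold change of 0.88. Kif18a, a motor that dampens the movements of chromosomes at the metaphase plate, was at 1.19, 1.24 and 1.24 FPKM in Control and at 4.08, 3.96 and 2.65 FPKM in MMK-1. Its mean rose 2.90-fold, and on the log2(FPKM + 1) scale the change was 1.02 (SE 0.117, limma adjusted p = 6.4e-05). Kif11, the motor that pushes spindle poles apart, had tighter libraries at 8.96, 9.20 and 9.06 FPKM in Control and 19.3, 18.9 and 19.5 FPKM in MMK-1. It had the highest level of the kinesins in both groups, and its log2 fold change was 1.00 with an SE of 0.0405, as small as any in the list.

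Kif14, which works with citron kinase in cytokinesis, was the lowest gene of the list at 0.75, 0.59 and 0.672 FPKM in Control and 1.42, 1.42 and 1.57 FPKM in MMK-1. Its log2 fold change of 0.56 was the smallest of the kinesins, yet its means differed 2.19-fold, since a gene under 1 FPKM is compressed most by the added 1, and with limma-voom its change was 0.99. Kif20a, a midzone motor with a log2 fold change of 0.69, shares 29.3% of its exon bases with Cdc23 on the opposite strand. Kif4, a chromosome-bound motor with 0.73, shares 15.1% with Pdzd11. Whether fragments were counted by strand is not given in the sources used here, so reads in such stretches could belong to either gene. GENCODE also lists a pseudogene each for Kif4 and Kif22, a chromosome-bound motor with a change of 0.96, and reads shared with them cannot be told apart here.

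The spindle assembly checkpoint, which delays anaphase while a kinetochore is unattached, rose in 4 of 4 genes by a median of 0.86 on the log2 scale. Bub1b, which encodes the inhibitor BubR1, was at 7.88, 8.16 and 7.996 FPKM in Control and at 17.5, 17.8 and 20.5 FPKM in MMK-1, a log2 fold change of 1.12 (SE 0.0620, limma adjusted p = 7.5e-07). Mad2l1, which with BubR1 forms the complex that blocks Cdc20, had the highest Control level and the smallest change, from 13.1, 12.7 and 11.6 FPKM to 18.7, 21.0 and 20.8 FPKM, or 0.65 (SE 0.0619). Between them lay the kinases Bub1 with 0.92 and Ttk with 0.80. Bub1 was at 3.85, 3.86 and 4.07 FPKM in Control and at 8.54, 8.41 and 8.01 FPKM in MMK-1.

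In the chromosomal passenger complex, which corrects faulty attachments and later marks the midzone, the 4 genes changed nearly in step. Log2 fold changes were 0.84 for Incenp, the scaffold, 0.84 for Birc5 (survivin), 0.82 for Cdca8 (borealin) and 0.69 for Aurkb, the kinase. Incenp was at 11.2, 10.3 and 11.1 FPKM in Control and at 19.6, 20.3 and 20.9 FPKM in MMK-1. Aurkb was at 13.02, 14.2 and 12.9 FPKM in Control and at 21.0, 21.7 and 23.6 FPKM in MMK-1. Cdca8 had the highest level, 17.9, 17.2 and 17.3 FPKM in Control and 30.7, 31.4 and 33.0 FPKM in MMK-1. The 95% intervals of the 4 changes overlapped, from 0.55 to 0.82 for Aurkb and from 0.73 to 0.95 for Incenp.

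Genes of spindle assembly and cytokinesis rose in 9 of 9 cases, by a median of 0.81 on the log2 scale, and held the largest single change. Ect2 (NCBI gene 13605, chr3:27097222-27153878 on mm10), the exchange factor that switches on RhoA at the division plane, was at 5.63, 5.49 and 5.49 FPKM in Control and at 20.5, 20.1 and 16.04 FPKM in MMK-1. The log2 fold change was 1.60 (SE 0.0839, limma adjusted p = 5.6e-07), rank 64 among all 10551 genes tested. Its known partners at the midzone changed by about the median of the list: Racgap1, which binds Ect2, by 0.81, Kif23, the motor bound to Racgap1, by 0.84, and Prc1, which bundles midzone microtubules, by 0.80. Prc1 shares 11.1% of its exon bases with Rccd1 on the opposite strand.

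The interval of the change of Ect2, 1.4 to 1.8, lay above those of Racgap1, 0.70 to 0.92, and Kif23, 0.72 to 0.96. Cdca3, an adaptor for protein degradation at mitotic entry, had the highest level of the group, 19.7, 19.2 and 21.8 FPKM in Control and 36.4, 35.2 and 39.2 FPKM in MMK-1. Dlgap5, a protein that stabilises kinetochore microtubules, changed least, from 5.50, 5.28 and 5.73 FPKM to 8.27, 7.87 and 8.67 FPKM, or 0.51 (SE 0.0529, limma adjusted p = 3.3e-05). The remaining 4, the microtubule-associated proteins Hmmr, Tpx2, Nusap1 and Ckap2, had log2 fold changes of 0.91, 0.84, 0.68 and 0.67.

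Among the 3 genes that protect or stabilise cohesion between sister chromatids, Sgo1 rose by 0.95, Cdca5 (sororin) by 0.76 and Sgo2a by 0.72 on the log2 scale. Sgo1 was at 3.51, 3.34 and 3.21 FPKM in Control and at 7.58, 7.41 and 7.17 FPKM in MMK-1. Cdca5 was the highest of these genes, at 5.81, 5.62 and 5.11 FPKM in Control and 9.10, 10 and 10.9 FPKM in MMK-1. Sgo2a stood lower, at 1.91, 1.67 and 1.65 FPKM in Control and 3.86, 3.90 and 2.87 FPKM in MMK-1, and 35.04% of its exon bases, the largest share in the list, lie opposite Kctd18.

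Outer kinetochore genes, which hold the microtubule, rose in 6 of 6 cases with a median log2 fold change of 0.73. Knl1, the platform on which checkpoint kinases gather, was at 1.27, 1.20 and 1.32 FPKM in Control and at 4.22, 4.23 and 3.13 FPKM in MMK-1. Its means differed 3.06-fold, the second largest ratio in the list, and the log2 fold change was 1.1 (SE 0.0935, limma adjusted p = 9.9e-06). The 4 subunits of the Ndc80 complex, the microtubule grip itself, were less even: 0.91 for Nuf2, 0.82 for Ndc80, 0.64 for Spc25 and 0.48 for Spc24.

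Spc24 had the highest Control level of these genes, 8.26, 8.94 and 8.57 FPKM, and reached 12.7, 11.9 and 12.4 FPKM in MMK-1. The 95% interval of its change, 0.36 to 0.59, lay below that of Nuf2, 0.79 to 1.03. Nuf2 was at 4.99, 5.21 and 5.10 FPKM in Control and at 9.74, 10.7 and 10.96 FPKM in MMK-1, and its dimer partner Ndc80 at 2.64, 3.11 and 2.97 FPKM and at 5.90, 5.96 and 5.75 FPKM. Spc25, which pairs with Spc24, was at 4.95, 5.11 and 4.50 FPKM in Control and at 8.59, 8.28 and 7.54 FPKM in MMK-1. All 4 separated the groups. Ska1, which tracks depolymerising microtubule ends, rose by 0.57 at a low level of 1.15 FPKM in Control. Its means differed 1.90-fold, and its change was 0.87 with a pseudocount of 0.1.

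Genes at the centromere and the fibrous corona rose in 7 of 7 cases with a wide spread and a median change of 0.65. This was the smallest median of the role groups in the main fit, though anaphase genes were lower with limma-voom (0.62 against 0.74) and without MMK-1 replicate 3 (0.66 against 0.70). Cenpa, the histone variant that marks the centromere, was at 14.1, 14.3 and 15.7 FPKM in Control and at 30.9, 32.6 and 32.7 FPKM in MMK-1, a log2 fold change of 1.07 (SE 0.0517, limma adjusted p = 3.2e-07). It was also the highest of the group. The corona proteins Cenpe, a motor, and Cenpf rose by 0.92 and 0.65. The inner subunits Cenpw, Cenph and Cenpn rose by 0.78, 0.64 and 0.54, and Cenpw (35.8% GC) stood at 0.44 after GC correction.

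Cenpk, another inner subunit, was the least certain gene of the group, at 1.74, 1.71 and 1.41 FPKM in Control and 2.90, 3.63 and 1.89 FPKM in MMK-1. MMK-1 replicate 3 was close to the Control libraries, the SE of 0.150 was the largest of the list, and the log2 fold change of 0.51 had an adjusted p of 0.013 (limma). After GC correction the change was 0.22. Cenpk was no longer called without the filter on low values (0.51, adjusted p = 0.065, limma). Nor was it called with limma-voom on recovered fragments (0.59, adjusted p = 0.068). Without MMK-1 replicate 3 the change of Cenpk was 0.70 (adjusted p = 0.00018, limma).

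Genes that trigger anaphase rose by a median of 0.69 on the log2 scale, and included both the highest gene of the list and the one that moved least. Ube2c, the ubiquitin-conjugating enzyme of the APC/C, was at 64.5, 58.6 and 60.4 FPKM in Control and at 106, 113 and 116 FPKM in MMK-1, a log2 fold change of 0.86 (SE 0.0503, limma adjusted p = 1e-06). It shares 22.8% of its exon bases with Tnnc2 on the opposite strand. Cdc20, the activator that the checkpoint restrains, rose by 0.64, and Espl1, the separase that cuts cohesin, by 0.75.

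Pttg1 (securin; NCBI gene 30939, chr11:43420250-43426251 on mm10), the inhibitor of separase, was at 2.63, 2.27 and 2.30 FPKM in Control and at 2.74, 2.78 and 3.50 FPKM in MMK-1. The highest Control and the lowest MMK-1 library were close, and MMK-1 replicate 3 stood above the other 2. The log2 fold change was 0.23 (SE 0.0839, limma adjusted p = 0.031), near the median of all genes, and it fell to 0.12 (adjusted p = 0.21) under upper-quartile scaling and to 0.15 (adjusted p = 0.063) without MMK-1 replicate 3. The call was also lost without Control replicate 2 (0.21, adjusted p = 0.095) or 3 (0.21, adjusted p = 0.091). The 95% interval for Pttg1, 0.04 to 0.43, lay below that for Espl1, 0.63 to 0.87.

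**Figure D2:**
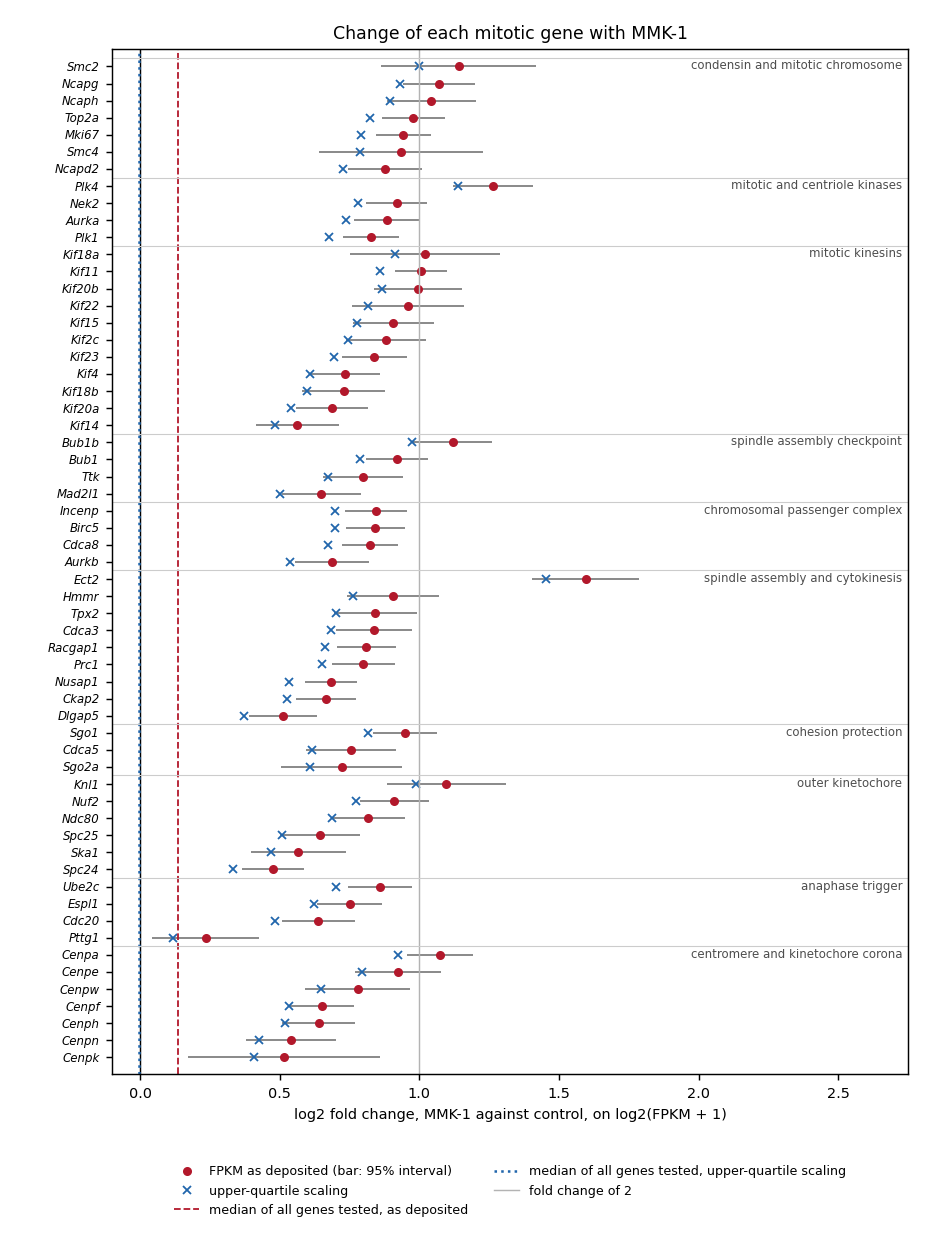
Points give the log2 fold change of each gene on log2(FPKM + 1), bars its 95% interval from limma, and crosses the value after upper-quartile scaling. Rows follow the 10 role groups, the dashed and dotted lines mark the medians of all genes tested (0.13 and -0.0047), and Pttg1 is nearest to them while Ect2 lies farthest to the right.

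Ratios of partner genes or of related genes were taken within each library, where the scaling between libraries cancels. Of 10 ratios, 7 separated the groups, each with an exact two-sided permutation p = 0.1, the floor for 3 against 3, and an adjusted p of 0.143 over the 10, so none could pass 0.05. The mean FPKM of the condensin I subunits over that of the condensin II subunits Ncapd3, Ncapg2 and Ncaph2 moved most with all 6 libraries in use, although Kif18b over Kif18a moved more without MMK-1 replicate 3 (-0.86 against 0.67) or Control replicate 3 (-0.72 against 0.65). On the log2 scale it was -0.29, -0.29 and -0.43 in Control and 0.31, 0.36 and 0.43 in MMK-1, a difference of 0.70, or 0.62 after GC correction. Within the condensin II mean, Ncaph2 carried most of the level (29.6 FPKM in Control, 33.7 in MMK-1) and changed by 0.18, a call lost under upper-quartile scaling (0.03), whereas Ncapg2 rose by 1.04 and Ncapd3 by 0.50. Ncaph2 was at 30.05, 28.5 and 30.3 FPKM in Control and at 32.4, 32.9 and 35.8 FPKM in MMK-1. Ncapg2 was at 2.67, 2.90 and 2.95 FPKM and at 8.01, 7.97 and 5.12 FPKM, and Ncapd3 at 3.96, 3.81 and 3.53 FPKM and at 5.77, 5.59 and 5.78 FPKM. The condensin II mean thus followed its most abundant subunit.

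The depolymerase Kif18b over the related motor Kif18a went from 1.58 ± 0.168 to 0.95 ± 0.396 (log2 ratio, SD, n = 3), a difference of -0.63 that was -0.30 after GC correction. MMK-1 replicate 3, at 1.3989, lay just under the lowest Control library, at 1.4002, while replicates 1 and 2 were at 0.67 and 0.76. Kif18b itself was at 3.97, 3.78 and 3.28 FPKM in Control and at 6.505, 6.73 and 6.98 FPKM in MMK-1, so replicate 3 stood apart through Kif18a. Kif20b, a motor of abscission, was at 3.46, 3.25 and 2.85 FPKM in Control and at 7.35, 7.79 and 6.85 FPKM in MMK-1. Kif20a was at 8.23, 8.002 and 8.69 FPKM in Control and at 13, 14.2 and 14.7 FPKM in MMK-1. Kif20b over Kif20a was higher by 0.46, Smc2 over Smc4 by 0.27, Ncapg over Ncapd2 by 0.26, Spc25 over Spc24 by 0.22 and Aurka over Aurkb by 0.22. In Nuf2 over Ndc80, Sgo2a over Sgo1 and Bub1b over Bub1 the groups overlapped, with differences of 0.02, -0.13 and 0.13 and exact p of 0.9, 0.5 and 0.2. Several of these differences changed with GC correction. After GC correction Ncapg over Ncapd2 turned to -0.18, Nuf2 over Ndc80 to -0.01, Spc25 over Spc24 was 0.06, Kif20b over Kif20a 0.20 and Bub1b over Bub1 0.36. Smc2 over Smc4 (0.25), Aurka over Aurkb (0.21) and Sgo2a over Sgo1 (-0.17) moved by less than their SD. Without MMK-1 replicate 3, Bub1b over Bub1 was 0.03 and Sgo2a over Sgo1 -0.0047. Sgo2a over Sgo1 was -0.20 without MMK-1 replicate 2, and Aurka over Aurkb was 0.14 without Control replicate 2.

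**Figure D3:**
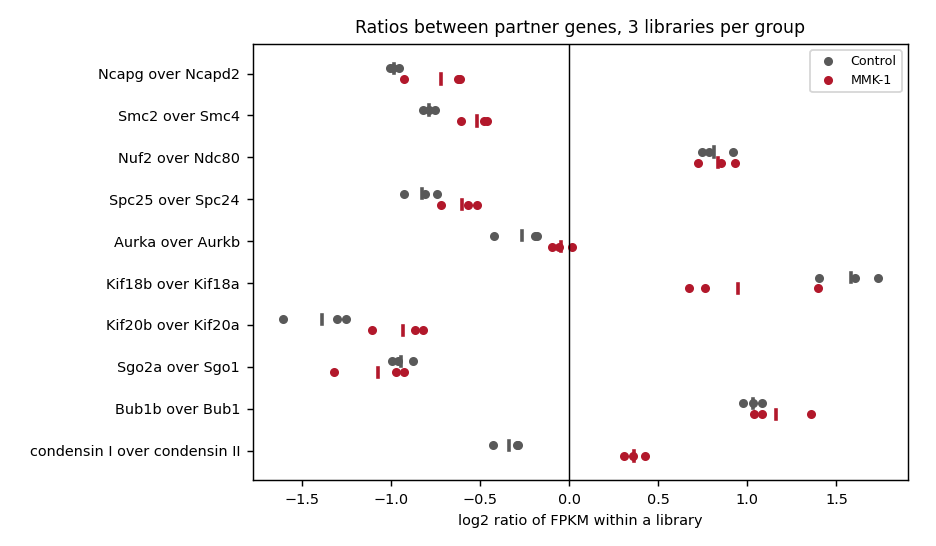
Each row is a ratio of FPKM between named genes or complexes within a library on a log2 axis, with Control libraries in grey above and MMK-1 libraries in red below, and vertical bars at the group means. The ratio of condensin I to condensin II is negative in all 3 Control libraries and positive in all 3 MMK-1 libraries, and MMK-1 replicate 3 lies away from the other MMK-1 libraries for Kif18b over Kif18a.

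MMK-1 replicate 3 differed from replicates 1 and 2 in a way that followed base composition. It was lower than their mean in 24 of the 59 genes, by as much as 0.56 on the log2(FPKM + 1) scale in Cenpk, and higher by as much as 0.28 in Kif22. Across the 59 genes the difference had a Pearson's r of 0.66 and a Spearman's rho of 0.69 with the GC content of the longest transcript, and over 10411 tested genes r was 0.52; these are descriptions over genes that share the same libraries. In the 16 genes under 42% GC the median difference was -0.15, and in the 15 genes of at least 50% GC it was 0.08.

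The genes of low GC included several of the largest changes, among them Ect2 (40.2%), Smc2 (39.7%), Knl1 (37.7%) and Kif18a (38.2%). GC correction took the median log2 fold change of the 16 genes under 42% from 0.93 to 0.76 and that of the 15 genes of at least 50% from 0.84 to 0.91. Ect2 then stood at 1.41 and Bub1b (50.4% GC) at 1.19. All 59 genes stayed higher at an adjusted p of at most 0.05 (limma) after that correction, and 6 passed the fold threshold. The shares of all genes tested after that correction were not taken, so these counts have none beside them.

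**Figure D4:**
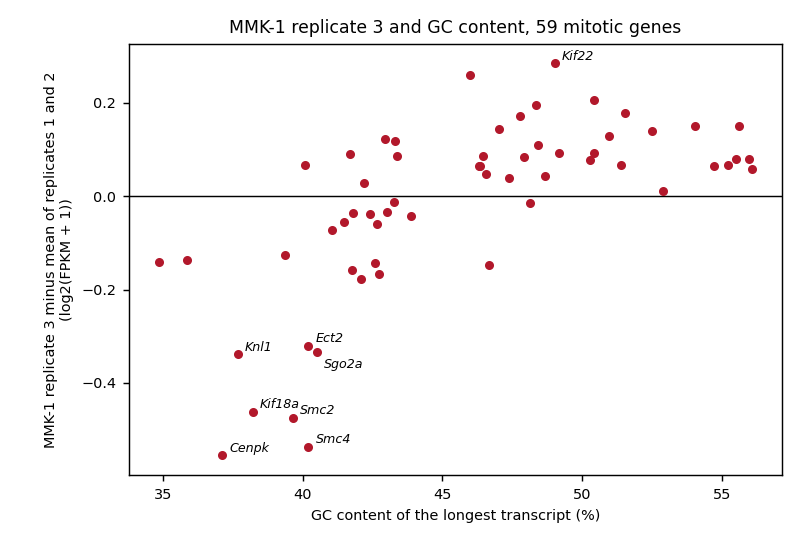
Each point is a gene of the list, with the GC content of its longest transcript in percent on the horizontal axis and the difference of MMK-1 replicate 3 from the mean of MMK-1 replicates 1 and 2, on log2(FPKM + 1), on the vertical axis. Genes under about 42% GC fall mostly below 0, down to -0.56 for Cenpk, and genes over 50% lie above it.

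Promoters of cell cycle genes that peak in G2 and mitosis are known to carry CCAAT boxes and the cell cycle homology region (CHR), short elements bound by NF-Y and by the DREAM and MuvB complexes. The 150 bases before the annotated start, from RefSeq on GRCm38.p6, were available for 51 of the 59 genes and were searched on both strands. CCAAT occurred in 32 of 51 (62.7%), beside 25.3% of 27025 promoters and 29.3% of the 8572 promoters of genes tested. The CHR letters TTTGAA or TTCGAA occurred in 17 of 51 (33.3%), beside 9.89% of all promoters and 6.29% of those of genes tested, and both elements together in 13 (25.5%), beside 2.52% and 2.10%. The letters TTTAAA, another form of the CHR, occurred in 4 of 51 (7.84%), beside 6.79% and 3.84%. TTCGAA and TTTAAA read the same on both strands. In 22 of the 51 genes the listed start lay inside the gene as GENCODE annotates it, by 1 to 3867 bases, and in 6 of them (Pttg1, Kif4, Cdca3, Kif14, Cdca8 and Kif2c) the whole window did. These windows stayed in the counts. As alternatives chosen after seeing the data, CCAAT occurred in 16 of the 29 other windows (55.2%) and TTTGAA or TTCGAA in 6 (20.7%), and in 28 (62.2%) and 16 (35.6%) of 45 when only those 6 were left out. Shares over all promoters were not taken with such windows left out, so these counts have no like share beside them. The matches are a description of letters, and promoter activity was not measured.

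The windows of the 5 genes with the largest log2 fold change that had an entry are printed here. Top2a, with 4 CCAAT matches, and Cenpk, a gene of small change, were added after their values were seen. The windows of Cenpa, next in order, and Pttg1 are not printed because their listed starts lie inside the genes as GENCODE annotates them. Capitals mark CCAAT, or ATTGG where it is on the other strand, and the CHR letters or their complement. All are written 5′ to 3′ on the strand of the gene.
Ect2 (chr3:27153879-27154028, minus strand): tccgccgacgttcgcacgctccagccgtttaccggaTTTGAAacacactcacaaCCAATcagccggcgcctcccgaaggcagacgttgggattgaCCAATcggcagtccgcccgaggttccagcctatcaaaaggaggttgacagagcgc
Plk4 (chr3:40799801-40799950, plus strand): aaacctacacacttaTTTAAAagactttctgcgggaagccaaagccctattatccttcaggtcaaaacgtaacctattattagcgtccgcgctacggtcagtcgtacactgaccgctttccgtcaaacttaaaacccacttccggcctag
Smc2 (chr4:52439071-52439220, plus strand): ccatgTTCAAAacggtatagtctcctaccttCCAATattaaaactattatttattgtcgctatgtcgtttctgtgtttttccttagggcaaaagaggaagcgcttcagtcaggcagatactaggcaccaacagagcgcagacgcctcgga
Bub1b (chr2:118598061-118598210, plus strand): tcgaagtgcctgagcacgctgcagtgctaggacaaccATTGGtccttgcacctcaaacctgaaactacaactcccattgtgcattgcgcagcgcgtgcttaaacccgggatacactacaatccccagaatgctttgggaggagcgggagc
Knl1 (chr2:119046969-119047118, plus strand): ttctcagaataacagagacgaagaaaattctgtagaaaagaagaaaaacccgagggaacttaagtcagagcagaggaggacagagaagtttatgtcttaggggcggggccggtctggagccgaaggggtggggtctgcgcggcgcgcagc
Top2a (chr11:99024190-99024339, minus strand): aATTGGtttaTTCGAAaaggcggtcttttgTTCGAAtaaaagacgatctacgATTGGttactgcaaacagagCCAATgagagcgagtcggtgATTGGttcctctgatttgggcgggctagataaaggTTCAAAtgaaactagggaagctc
Cenpk (chr13:104228461-104228610, plus strand): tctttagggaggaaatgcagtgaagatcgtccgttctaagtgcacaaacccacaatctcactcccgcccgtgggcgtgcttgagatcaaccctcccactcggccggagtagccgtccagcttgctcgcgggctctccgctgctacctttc

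Ect2 held 2 CCAAT matches 96 and 55 bases before the start and TTTGAA 114 bases before it. Smc2 held CCAAT 119 bases before the start and TTTGAA on the other strand 145 bases before it. Bub1b held CCAAT 113 bases before the start and no CHR letters. Plk4 held no CCAAT in its window but TTTAAA 135 bases before the start, and Knl1 and Cenpk held neither element in theirs.

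Genes of the same machinery outside the list were taken from lists by function, and their counts are read beside the 48.5% of all genes that were higher. The share of all genes tested that were lower was not taken, so counts of lower genes have no share to be read against. Of 29 tested genes of the centromere and kinetochore that were not on the list, 25 were higher and 2 lower, with a median of 0.58 (0.44 under upper-quartile scaling). Dsn1, a kinetochore scaffold, was among the genes of large change with 1.045, and Hjurp, the Cenpa chaperone, and Cenpx were lower by -0.33 and -0.23. Among 36 other spindle and cytokinesis genes 33 were higher and none lower, with a median of 0.70 (0.57 scaled). Depdc1a (1.25) and Cep55 (1.06), which acts in abscission, led these genes.

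Cohesin and its loaders, which join sister chromatids from S phase on, were higher in 11 of 12 tested genes, with a median of 0.53, and 10 were higher and 1 lower under upper-quartile scaling (median 0.41). Esco2, the acetyltransferase that locks cohesin on DNA, changed by 1.19 and Wapl, which releases it, by 0.99, while Mau2, a loader, was at -0.01 and at -0.16 when scaled. The 15 listed genes of the APC/C, the enzyme with which Ube2c and Cdc20 act, were its subunits and Fzr1, an activator like Cdc20 (0.27, adjusted p = 0.00071, limma). They had a median of 0.22 (0.09 scaled), with 8 higher and 1 lower, and 7 higher and 3 lower under upper-quartile scaling. The 10 tested genes of centriole duplication, the pathway of Plk4, had a median of 0.30 (0.18 scaled), with 9 higher at the deposited scale and 7 higher and 1 lower when scaled. Within them Sass6 and Stil, which build the centriole cartwheel, changed by 1.08 and 0.84 (0.97 and 0.72 scaled), and Cep152 and Cep192, which recruit Plk4, by 0.24 and 0.29 (0.13 and 0.16 scaled). The smallest changes were those of Cep63, at -0.13 (-0.22 scaled), and Cep135, at 0.20 (0.12 scaled).

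Transport kinesins, which carry cargo along microtubules outside mitosis, were listed with kinesin light chains, which bind cargo and are no motors. Of 14 genes tested, 11 were higher and 1 lower, with a median of 0.32, and 8 were higher and 2 lower under upper-quartile scaling, with a median of 0.17. The smallest change among the 11 mitotic kinesins described above, 0.56 for Kif14, lay above the transport median of 0.32. The ranges overlapped, with Klc2 at 0.83 and Kif12 at 0.60 in the transport list. Of the kinesins among the other spindle genes, Kif2a (0.14, -0.003 scaled) lay below that median and Kifc1 (0.64, 0.50 scaled) above it. The DNA replication machinery, used in S phase, was close to the list with a median of 0.80 (0.68 scaled) and 29 of 30 genes higher. No test compares these sets, and they are described by counts and medians only.

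**Figure D5:**
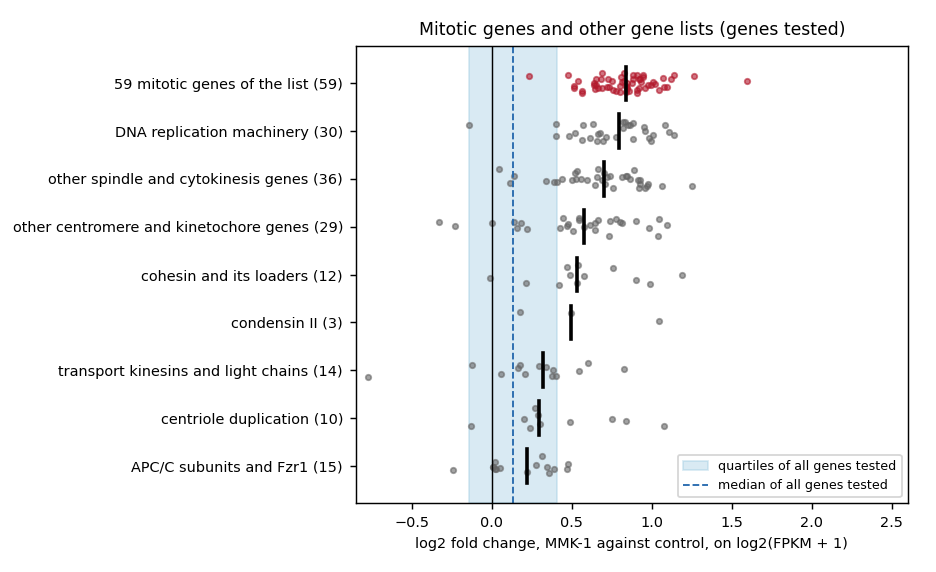
Each point is a tested gene, placed by its log2 fold change on log2(FPKM + 1), with a black bar at the median of each list and the number of genes in parentheses. The shaded band spans the quartiles of all genes tested (-0.14 to 0.41) and the dashed line is their median (0.13). All points of the 59 genes except Pttg1 lie to the right of the band, as do most of the replication genes, while most of the APC/C genes lie inside it.

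Markers of the cells in the culture moved with the groups, and their part in the changes above was not tested. Intestinal stem cell genes were higher in 9 of 9 cases (median log2 fold change 1.58), and their summed level was 84.2 to 86.3 FPKM in Control and 413 to 442 FPKM in MMK-1. Paneth cell genes were higher in 7 of 7 cases (median 1.70), with sums of 411 to 461 and 1309 to 1448 FPKM. Of 12 enterocyte markers 11 were lower and 1 higher, with a median of -1.36 and sums of 9923 to 10023 and 5479 to 5904 FPKM. For the markers too, no share of all genes tested that were lower was taken. General epithelial markers had a median of 0.08, with 3 of 6 higher and 2 lower, but a median of -0.08 with 2 higher and 3 lower under upper-quartile scaling. Their sums were 2795 to 2820.2 FPKM in Control and 2160.5 to 2338 FPKM in MMK-1.

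Goblet cell markers had 5 of 7 higher and 2 lower, or 2 and 2 when scaled, with sums of 1836 to 1982 and 1977 to 2158 FPKM. Enteroendocrine markers had 7 of 8 higher, or 5 when scaled, with sums of 310.2 to 327 and 446 to 456 FPKM. Tuft cell markers summed to 1.67 to 2.15 and 2.18 to 2.52 FPKM, and none was tested. Leukocyte markers summed to 3.83 to 4.32 FPKM in Control and 1.59 to 2.20 FPKM in MMK-1, and fibroblast and endothelial markers to 4.76 to 5.34 and 3.50 to 5.12 FPKM. Of these markers of cells outside the epithelium only Cd68 and Vim reached the filter, and both were lower in MMK-1.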

How the data were processed

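RNA from 3 Control and 3 MMK-1 samples of organoids was sequenced as 150-bp read pairs. The authors deposited FPKM per gene, and their processing notes name HISAT2, HTSeq, R 3.2.0, DESeq2 and the mm10 build without roles. Fragments were recovered from the FPKM steps (100% of genes whole, tolerance 0.004), which gave depth and the input to limma-voom. The main test was limma 3.58.1 (R 4.3.3, eBayes with trend) on log2(FPKM + 1) for genes averaging 1 FPKM or more, with Benjamini-Hochberg adjustment over all genes tested, and it was tested on simulated data first. The FPKM design was fixed as 3 against 3 without a replicate block. GENCODE (mm10) gave GC content and overlaps, and RefSeq promoters matched 51 genes. A planned search of protein sequences was not run.

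The members and all lists were chosen with earlier results of these data known. Values in every library were given, in each role group, for the genes with the highest level and with the largest and smallest change and for the genes of the ratios. Of other lists, changes were given for at most the 2 largest and 2 smallest. Beyond these, Fzr1, Cep152, Cep192, Kif2a and Kifc1 were named for their function. Alternatives were upper-quartile scaling, other filters, pseudocounts and thresholds, limma-voom, GC and length corrections, a replicate block and leaving out each library. The block and GC correction for ratios were added after seeing the data. FPKM values are relative to the library total, so a few abundant genes can shift all others.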

Additional observations from a re-analysis of the deposited data

How the results depend on the processing

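The number of listed genes called higher was 57 to 59 of 59 under every alternative run (44 of 44 with a mean FPKM of at least 5). The number at the fold threshold, 10, was 2 under upper-quartile scaling, 21 with a pseudocount of 0.1, 6 with GC correction, 6 with GC correction and the replicate block, and 52 at a fold of 1.5. Of these fits, shares of all genes tested were taken for the main fit (3.39%) and upper-quartile scaling (2.12%) only. Counts under the other settings, of genes called or past the fold threshold, have no share to be read against. The median log2 fold change, 0.84, was 0.69 under upper-quartile scaling, 0.87 with a mean FPKM of at least 5, 0.92 with a pseudocount of 0.1, 0.79 with limma-voom, and 0.80 with GC correction, with or without the replicate block. Leaving out each library gave 58 to 59 called, 10 to 11 at the fold threshold and medians of 0.82 to 0.85. Of 870 single-gene values, 862 kept direction and call, 8 lost the call (Pttg1 in 6, Cenpk in 2) and 0 reversed. Nuf2 over Ndc80 turned to -0.0148 without Control replicate 2 and to -0.0275 without MMK-1 replicate 3, and lay at up to 0.0762 without another library. With GC correction, added after seeing the data, it was -0.0118 and Ncapg over Ncapd2 -0.18. Differences moved there to 0.059 for Spc25 over Spc24, -0.30 for Kif18b over Kif18a, 0.20 for Kif20b over Kif20a, 0.36 for Bub1b over Bub1 and 0.62 for condensin I over condensin II. The cause was not tested. Deviations of same-numbered samples correlated at 0.025, -0.040 and 0.028, and the replicate block left 59 called and 10 at the fold threshold. With 3 libraries per group, correlations this small cannot show whether the samples were paired, and the labels do not say. Values of single genes rested on 102 to 10748 fragments per library.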
